A study of Sus scrofa with 11 samples.

Results

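The transcripts described are 6 genes of the red cell lineage, HBB, HBM, AHSP, ALAS2, SLC4A1 and EPB42, measured in carotid artery of pigs (Sus scrofa). They were taken by gene name from a table of 35670 genes, in which 5 of the 6 carry their name and HBB was identified by its gene ID. Pigs on a high-fat, high-calorie diet for 12 weeks received a weekly intravenous infusion, at 400 nM, of single-walled carbon nanotubes carrying a chemical that blocks SHP-1, a phosphatase of macrophages and other blood cells (SWNT-SHP1i), or of the nanotubes alone (SWNT). Both groups therefore share the diet and the nanotube carrier. Counts were analysed for 5 SWNT-SHP1i animals (replicates 1, 2, 3, 5 and 6) and 5 SWNT animals (replicates 1 to 5), with 1 library each. A further SWNT-SHP1i animal, replicate 4, is labelled as having died before harvest and is not analysed here. The labels name no age, sex or breed. The study asked, among other things, whether the treatment spares the animals anaemia.

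Mammalian red cells lose their nucleus before they leave the bone marrow. The youngest of them, the reticulocytes, still carry messenger RNA for globin, haem synthesis and the membrane skeleton for a short time and then lose it. In a sample of artery such transcripts are a readout of the blood carried in the vessel and its wall and of the reticulocytes within that blood. In bulk tissue, fewer cells of a type and less RNA per cell cannot be told apart.

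The 6 transcripts were present in carotid artery of both groups, at levels that differed widely between animals of the same group. For HBB, HBM, ALAS2 and SLC4A1 the group difference in mean log2 level was smaller than the SD of either group. For AHSP and EPB42 it lay between the SDs of the groups. HBB spanned 54.5-fold over the 10 libraries and ALAS2 37.5-fold, and every gene had its highest value in SWNT replicate 3. The fitted fold changes of the 5 genes that could be tested were all negative, with a median log2 value of -1.46. None of them passed the test over all genes. In each of the 6 genes the values of the SWNT-SHP1i and SWNT animals overlapped.

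Total counts ranged from 27593564 to 39413481 in SWNT-SHP1i and from 32931527 to 47718854 in SWNT libraries. Among genes with 20 to 200 counts, 61.6% to 75.7% of the counts were even in 8 libraries, 88.4% in SWNT-SHP1i replicate 3 and 80.0% in SWNT replicate 3, against the 50% of reads counted singly. The values are thus reads of which many were counted in pairs. Intervals and floors below cover counting error only. They treat reads as independent, so they are too tight where reads were counted in pairs. SWNT-SHP1i replicate 3 also had the fewest genes with a count, 14497, where the other libraries had 17259 to 19942. SWNT-SHP1i replicate 6 had the lowest total count, 27593564, and 17691 genes with a count. The part of these features in its values below was not tested. SWNT-SHP1i replicate 3 and SWNT replicate 3 are the animals whose numbers do not begin with B9. Nothing says what that number range marks. Smooth muscle markers summed to between 22265 and 53549 CPM (read counts divided by each library's scaled total) in SWNT-SHP1i and between 44897 and 66857 CPM in SWNT libraries, and all 10 of them had counts.

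The globins carry oxygen, and HBB encodes the beta chain of adult haemoglobin. The gene lies on the minus strand of chromosome 9 of Sscrofa11.1, at chr9:4800293-4802364. Its span overlaps that of an unnamed gene on the opposite strand, which had 0 reads in all 10 libraries. The reads of HBB are thus also uncertain where counting did not use strand. HBB stood at 174, 119, 201, 19.4 and 56.3 CPM in SWNT-SHP1i replicates 1, 2, 3, 5 and 6, against 135, 71.0, 1055, 244 and 35.3 CPM in SWNT replicates 1 to 5. SWNT replicate 3 lay above all others and SWNT-SHP1i replicate 5 below all others, while the remaining 8 animals of both groups were interleaved. The median was 119 CPM in SWNT-SHP1i and 135 CPM in SWNT animals. The fitted log2 fold change of HBB was -1.44 ± 0.85 (SE; 95% interval -3.28 to 0.40; edgeR quasi-likelihood test, adjusted p = 0.997). The mean log2 CPM was 6.42 ± 1.39 in SWNT-SHP1i and 7.27 ± 1.87 in SWNT (SD, n = 5 each; difference -0.85, two-sided exact permutation p = 0.444).

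HBM encodes mu globin, an alpha-like globin of the alpha globin cluster that in human is transcribed in erythroid cells. It lies at chr3:41489313-41490264 on the minus strand, inside the span of NPRL3 on the opposite strand, so its reads are uncertain where counting did not use strand. Its level was 5.79, 2.30, 9.26, 1.05 and 0.998 CPM in SWNT-SHP1i replicates 1, 2, 3, 5 and 6, against 4.02, 3.18, 44.0, 8.03 and 0.659 CPM in SWNT replicates 1 to 5. As with HBB, SWNT replicate 3 stood above the rest, and the groups overlapped in the other animals. The fitted log2 fold change was -1.62 ± 0.97 (SE, edgeR adjusted p = 0.997). The difference of mean log2 CPM was -0.90 (exact permutation p = 0.492, n = 5 each).

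AHSP encodes a chaperone that holds free alpha globin in solution until it pairs with beta globin. It lies at chr3:17059333-17065749 on the minus strand. Its counts were low, at 24, 16, 0, 4 and 18 reads in SWNT-SHP1i replicates 1, 2, 3, 5 and 6, against 46, 2, 160, 118 and 20 reads in SWNT replicates 1 to 5. On the CPM scale these are 0.610, 0.391, 0, 0.120 and 0.749 in SWNT-SHP1i, against 1.04, 0.0590, 3.57, 2.96 and 0.599 in SWNT animals. SWNT replicates 1, 3 and 4 lay above every SWNT-SHP1i animal, and SWNT replicate 2 lay below all SWNT-SHP1i animals except replicate 3. AHSP had the most negative fitted log2 fold change of the 5 genes tested, -2.14 ± 1.12 (SE; 95% interval -4.58 to 0.30; edgeR adjusted p = 0.997). Its difference of mean log2 CPM was -1.73 (exact permutation p = 0.183, n = 5 each).

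ALAS2, the erythroid form of the first enzyme of haem synthesis, is encoded on the X chromosome at chrX:47871523-47896000, minus strand. Levels of ALAS2 were 52.8, 21.8, 35.8, 6.26 and 14.8 CPM in SWNT-SHP1i replicates 1, 2, 3, 5 and 6, against 24.4, 13.7, 235, 77.6 and 11.9 CPM in SWNT replicates 1 to 5. Replicates 3 and 4 of SWNT were above all SWNT-SHP1i animals, and the other 3 SWNT animals fell within the SWNT-SHP1i range. The median was 21.8 CPM in SWNT-SHP1i and 24.4 CPM in SWNT animals. The fitted log2 fold change was -1.46 ± 0.81 (SE; 95% interval -3.22 to 0.30; edgeR adjusted p = 0.997). The difference of mean log2 CPM was -0.85 (exact permutation p = 0.413, n = 5 each).

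The remaining pair belongs to the red cell membrane. SLC4A1, at chr12:18957807-18974208 on the plus strand, encodes band 3, the anion exchanger that exports bicarbonate and anchors the membrane skeleton. It gave only 26, 8, 0, 2 and 0 reads in SWNT-SHP1i replicates 1, 2, 3, 5 and 6, against 25, 6, 76, 8 and 0 reads in SWNT replicates 1 to 5. A count of 0 allows up to 0.0797 CPM in SWNT-SHP1i replicate 3, 0.109 CPM in SWNT-SHP1i replicate 6 and 0.0911 CPM in SWNT replicate 5 (3 reads per library). SLC4A1 did not pass the filter on low counts and has no fitted fold change in the test over all genes. Its mean log2 CPM was -2.81 ± 1.59 in SWNT-SHP1i and -1.64 ± 1.86 in SWNT (SD; exact permutation p = 0.333, n = 5 each).

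EPB42 encodes protein 4.2, which ties band 3 to the skeleton. It is found at chr1:128231997-128253031 on the plus strand. EPB42 stood at 2.03, 0.391, 1.09, 0.959 and 0.166 CPM in SWNT-SHP1i replicates 1, 2, 3, 5 and 6, against 2.18, 0.944, 3.86, 1.86 and 0.659 CPM in SWNT replicates 1 to 5. Replicates 1 and 3 of SWNT lay above all SWNT-SHP1i animals, and SWNT-SHP1i replicates 2 and 6 lay below all SWNT animals. The fitted log2 fold change of EPB42 was -1.03 ± 0.72 (SE, edgeR adjusted p = 0.997), and the difference of mean log2 CPM was -1.13 (exact permutation p = 0.167, n = 5 each).

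**Figure D1:**
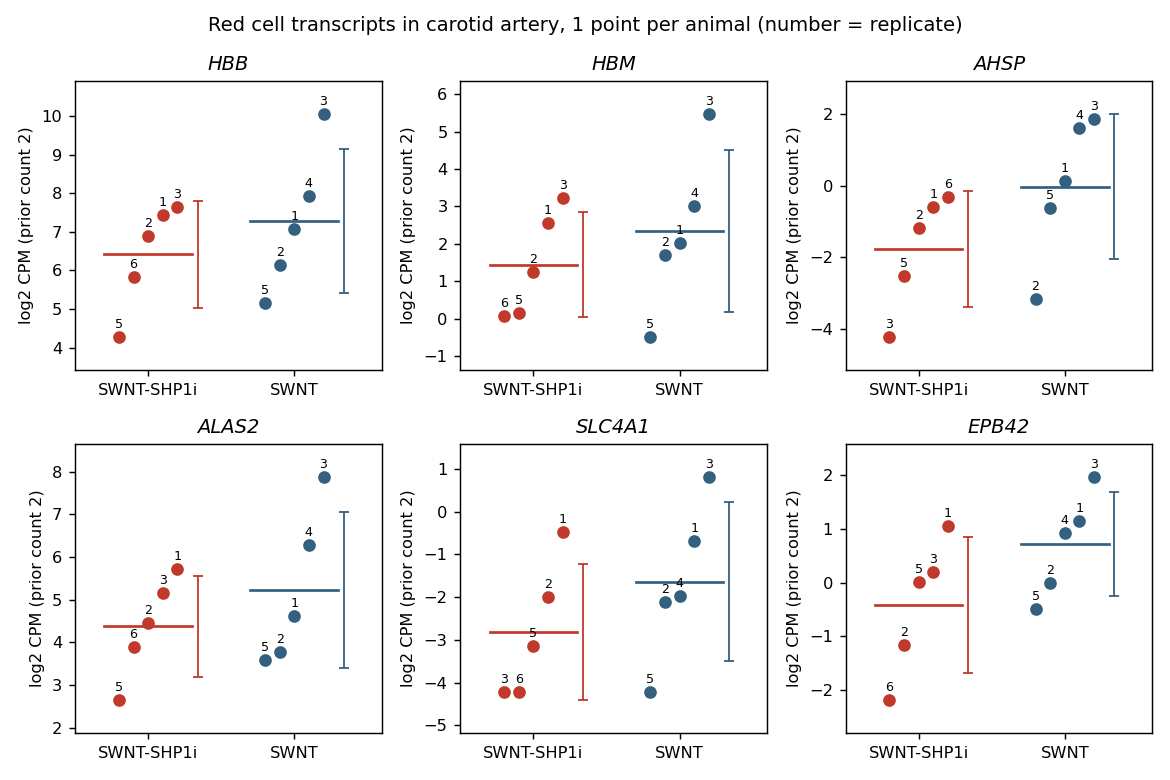
Level of each of the 6 transcripts as log2 CPM with a prior count of 2, with 1 point per animal numbered by replicate, SWNT-SHP1i on the left and SWNT on the right; horizontal lines are means and bars ± 1 SD (n = 5 each). SWNT replicate 3 is the highest point in all 6 panels, and the points of both groups overlap in each panel.

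Per kilobase of summed exon length the 6 genes kept nearly the same order in every animal. HBB led with a median of 97.0 CPM per kilobase over the 10 libraries, followed by ALAS2 with 11.7 and HBM with 4.24. Each of these stood above the next gene in 10 of 10 libraries. AHSP (median 0.769 CPM per kilobase) and EPB42 (0.401) changed places, with AHSP higher in 6 of 10 libraries. SLC4A1 had a median of 0.05 CPM per kilobase and stood below EPB42 in 10 of 10 libraries. In SWNT-SHP1i replicate 3 both SLC4A1 and AHSP were at 0.

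Over all genes tested, 0 of 15930 were called higher and 0 lower in SWNT-SHP1i than in SWNT at an adjusted p under 0.05 (0.0% in each direction), so a count of 0 among the 5 tested transcripts is the background rate. DESeq2 and limma-voom also called 0 genes. At an unadjusted p under 0.05, 556 genes were higher (3.49%) and 183 lower (1.15%), and 0 of the 5 transcripts were among them. That count depends on single libraries and on the tool. Without SWNT replicate 5 the unadjusted edgeR p was 0.0464 for ALAS2, 0.0497 for HBB and 0.0488 for HBM, and without SWNT replicate 2 it was 0.0388 for AHSP. DESeq2 gave AHSP an unadjusted p of 0.0447. A fitted log2 fold change under -1 was found in 5 of 5 tested transcripts and in 2.49% of all genes tested. The 5 genes were measured in the same animals and in part vary together, so they are not independent observations of the treatment. The groups overlapped in all 6 genes, whereas 0.276% of the genes tested had every SWNT-SHP1i value below every SWNT value and 0.0816% had every one above.

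The negative fold changes of HBB, HBM and ALAS2 rested on a single animal. Without SWNT replicate 3 the fitted log2 fold change was -0.10 for HBB, -0.04 for HBM and -0.28 for ALAS2, and it was -0.60 for EPB42 and -1.64 for AHSP. SLC4A1 then differed by -0.56 in mean log2 CPM, against -1.17 with all animals. Among the 8 animals with B9 numbers the log2 fold change was -0.40 for HBB, -0.65 for HBM, -0.42 for ALAS2, -0.66 for EPB42 and -1.34 for AHSP. SLC4A1 differed by -0.21 in mean log2 CPM among those animals. Leaving out SWNT-SHP1i replicate 1 gave -1.55 for EPB42. SLC4A1 differed by -1.82 without SWNT replicate 5. In limma-voom with sample quality weights, HBB (0.18), ALAS2 (0.17) and HBM (0.01) had positive values, again with none called. AHSP gave -0.51 ± 1.15 and EPB42 -0.52 ± 0.62 (SE) in that fit.

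**Figure D2:**
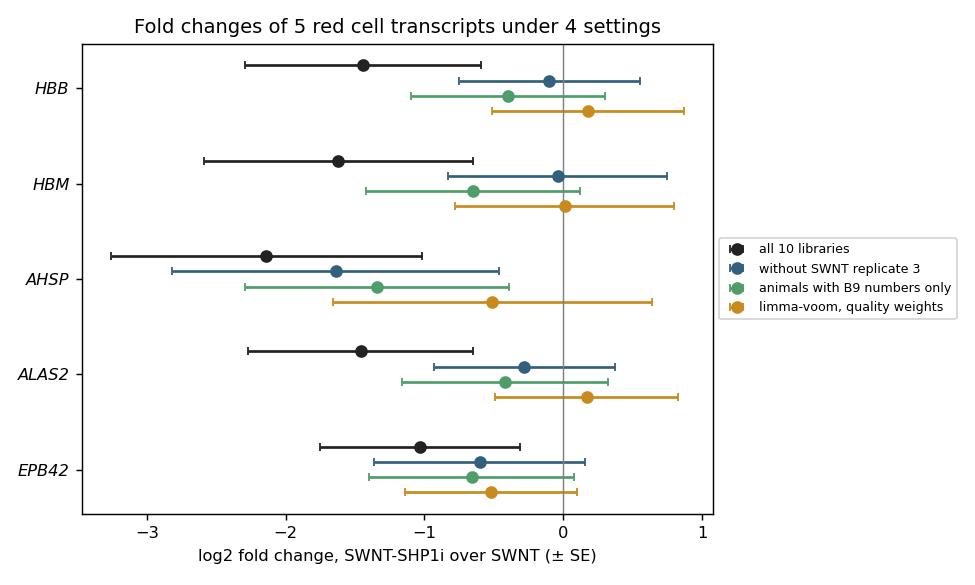
Fitted log2 fold change of SWNT-SHP1i over SWNT for the 5 tested transcripts, with bars of ± 1 SE, under 4 settings from top to bottom within each gene. For HBB the value is -1.44 with all 10 libraries and -0.10 without SWNT replicate 3. For AHSP it is -1.64 without that library and -0.51 in limma-voom with quality weights.

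HBB, HBM and ALAS2 varied together from animal to animal. Over the 10 libraries HBB correlated with ALAS2 at a Pearson r of 0.972 and a Spearman rho of 0.976 (permutation p adjusted over 19 relations of 0.00019 and 0.00038). HBB and HBM gave an r of 0.949 and a rho of 0.939 (adjusted permutation p = 0.00076 and 0.00247), and ALAS2 and HBM an r of 0.919 and a rho of 0.879 (0.00146 and 0.0101). Without SWNT replicate 3 and SWNT-SHP1i replicate 5, the 2 libraries farthest from the median, r was 0.914 for ALAS2 and HBB (adjusted exact permutation p = 0.0191), 0.944 for HBB and HBM (0.0099) and 0.827 for ALAS2 and HBM (0.0614). Within the treatment groups, on deviations from the group means, r was 0.969, 0.945 and 0.913 in the same order of pairs.

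The pairs with a transcript of few reads gave lower values of r. EPB42 gave an r of 0.767 (rho 0.794) with HBM and 0.756 (rho 0.767) with SLC4A1, both with an adjusted permutation p = 0.0437 for r. Adjusted over the same relations, rho gave a permutation p of 0.0399 with HBM and 0.0532 with SLC4A1. Without SWNT replicates 3 and 5, the 2 libraries farthest from the median of HBM, r with HBM was 0.699 (adjusted exact permutation p = 0.144). For SLC4A1 those libraries were SWNT-SHP1i replicate 3 and SWNT replicate 3. Without them r with SLC4A1 was 0.755 (adjusted exact permutation p = 0.0952). The other 10 of the 15 pairs did not pass. AHSP gave an r of 0.492 with HBB (rho 0.467, adjusted permutation p = 0.213 for r and 0.241 for rho), which was 0.847 without SWNT-SHP1i replicate 3 and SWNT replicate 2 (adjusted exact permutation p = 0.0614).

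**Figure D3:**
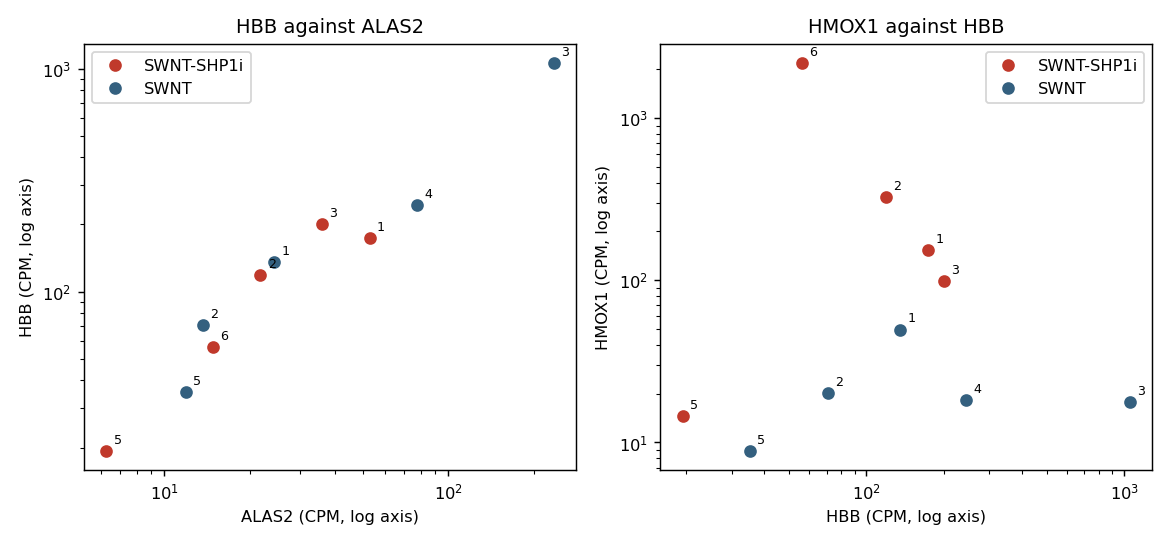
CPM of HBB against ALAS2 (left) and of HMOX1 against HBB (right), on log axes, with 1 point per animal numbered by replicate. HBB and ALAS2 fall along a single line from SWNT-SHP1i replicate 5 (6.26 CPM of ALAS2) to SWNT replicate 3 (235 CPM), while HMOX1 is 17.8 CPM in the animal with the most HBB.

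Reads of HBB per read of ALAS2 were 3.30, 5.44, 5.60, 3.09 and 3.8 in SWNT-SHP1i replicates 1, 2, 3, 5 and 6, against 5.54, 5.19, 4.49, 3.14 and 2.96 in SWNT replicates 1 to 5. The ratio thus spanned 1.89-fold over animals whose HBB spanned 54.5-fold. It averaged 4.25 ± 1.19 in SWNT-SHP1i and 4.26 ± 1.17 in SWNT (SD, n = 5 each; exact permutation p = 0.984 on the log2 ratio). HBM gave 34.2 ± 16.1 reads per 1000 reads of HBB in SWNT-SHP1i and 33.6 ± 10.4 in SWNT (n = 5 each, exact permutation p = 0.944), a range of 3.06-fold. SWNT replicate 3 lay inside the range of the other animals in both ratios, at 4.49 and 41.7.

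The ratio of AHSP to HBB varied more. Per 1000 reads of HBB there were 3.50, 3.30, 0, 6.19 and 13.3 reads of AHSP in SWNT-SHP1i replicates 1, 2, 3, 5 and 6, against 7.72, 0.831, 3.39, 12.1 and 16.9 in SWNT replicates 1 to 5. SWNT replicate 3, with the most HBB, was thus in the lower part of this range. The mean was 5.26 ± 5.0 in SWNT-SHP1i and 8.19 ± 6.49 in SWNT (SD, n = 5 each; exact permutation p = 0.429). In SWNT-SHP1i replicate 3 a count of 0 beside 7386 reads of HBB allows up to 0.406 reads of AHSP per 1000 (3 reads), and the exact 95% binomial interval, taken over reads of AHSP and HBB together, ends at 0.499. Among the other libraries, that interval begins above 0.499 in all but SWNT replicate 2 (0.101 to 3.0). These limits treat reads as independent and are too tight for reads counted in pairs. SWNT-SHP1i replicate 3 is the library with the fewest detected genes and the most even counts, and their part in its counts of 0 for AHSP and SLC4A1 was not tested. Without SWNT-SHP1i replicate 3 the log2 fold change of AHSP was -1.82.

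EPB42 gave 50.2 ± 58.4 reads per 1000 reads of ALAS2 in SWNT-SHP1i and 50.7 ± 30.5 in SWNT (exact permutation p = 0.651, n = 5 each). SLC4A1 gave 6.21 ± 5.82 in SWNT-SHP1i and 9.18 ± 9.25 in SWNT (exact permutation p = 0.540, n = 5 each). Adjusted over the 5 ratios compared, the permutation p was 0.984 for each. In none of these ratios was the group difference larger than the spread between animals.

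**Figure D4:**
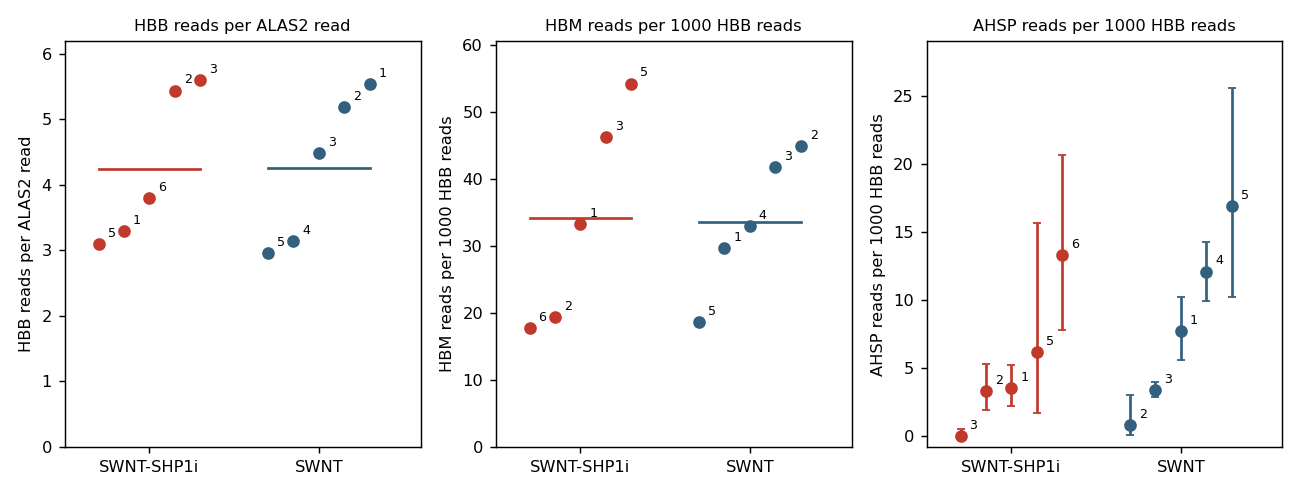
Reads of HBB per ALAS2 read, of HBM per 1000 HBB reads and of AHSP per 1000 HBB reads, with 1 point per animal numbered by replicate and SWNT-SHP1i left of SWNT; lines are group means and, in the right panel, bars are exact 95% binomial intervals. HBB per ALAS2 read stays between 2.96 and 5.60 in all 10 animals, while AHSP runs from 0 to 16.9.

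Of the other genes of both globin clusters, an unnamed pair varied with the 5 tested transcripts. An unnamed gene between HBQ1 and HBM on chromosome 3, ENSSSCG00000007978, had 73.4, 27.6, 53.3, 5.49 and 10.4 CPM in SWNT-SHP1i replicates 1, 2, 3, 5 and 6, against 37.8, 17.2, 357, 61.1 and 6.32 CPM in SWNT replicates 1 to 5. Its Pearson r with the mean centred log2 CPM of the 5 tested transcripts was 0.949 over the 10 libraries. A second unnamed gene beside HBB on chromosome 9, ENSSSCG00000014727, ran from 1.83 to 14.0 CPM in SWNT-SHP1i and from 2.71 to 68.3 CPM in SWNT animals (r 0.940). Both were highest in SWNT replicate 3. ENSSSCG00000007978 lies inside the span of NPRL3 on the opposite strand, so its reads are uncertain where counting did not use strand. Sequences were not compared, so reads that either gene may share with a similar gene cannot be told apart.

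HBZ and HBE1, the embryonic alpha-like and beta-like globins, had 8 and 18 reads in total over the 10 libraries. HBQ1, theta globin, did not follow the others (r 0.223). It was highest in SWNT-SHP1i replicate 6, at 21.3 CPM, where HBB was 56.3 CPM, and it stood at 7.81 CPM in SWNT replicate 3. HBQ1 overlaps NPRL3 on the opposite strand, so its reads are uncertain.

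Of 72 other red cell genes listed, 62 were in the table and 46 were tested, of which 23 had positive and 23 negative fold changes. None was called in either direction, and their median log2 fold change was -0.003, against 0.01 over all genes tested. Of the 12 genes of haem synthesis and its transport steps, 7 were positive, with a median of 0.18. The ones with the smallest p were the mitochondrial transporter ABCB10 (-0.41 ± 0.21), the mitochondrial iron importer SLC25A37 (-0.45 ± 0.26) and ALAD, the second enzyme of the pathway (0.52 ± 0.31), all with an edgeR adjusted p = 0.997. SLC25A37 ran from 8.69 to 12.2 CPM in SWNT-SHP1i animals, against 22.4 CPM in SWNT replicate 3 and 9.74 to 12.9 CPM in the other SWNT animals.

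Among 11 tested genes of the red cell membrane 4 were positive and 7 negative (median -0.06), with STOM (stomatin), DMTN (dematin) and XK first by p at -0.22 ± 0.18, 0.33 ± 0.39 and -0.39 ± 0.46. STOM is also known outside red cells and stood at 217 to 367 CPM in SWNT-SHP1i and 331 to 375 CPM in SWNT.

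Of the 9 listed regulators of erythroid cells, 6 passed the filter on low counts and GATA1, GFI1B and KLF1 did not. GATA1, the master regulator of the lineage, had 95 reads in total, and GFI1B, a repressor acting beside it, had 32. KLF1, which activates the adult beta globin gene, had 23 reads, all in SWNT-SHP1i replicate 6 (0.957 CPM), and 0 in the other 9 libraries, including SWNT replicate 3, where 0 reads allow 0.0629 CPM. In the 6 tested members of this list the median was 0.05. ZFPM1, a partner of GATA1, was first by p (0.96 ± 0.45, edgeR adjusted p = 0.997), followed by NFE2 (0.97 ± 1.0) and BCL11A (-0.17 ± 0.37).

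Of 16 tested genes of reticulocytes and red cell metabolism 7 were positive and 9 negative (median -0.02). FAM210B, a mitochondrial protein of erythroid haem synthesis, was the single gene of the 46 with an unadjusted edgeR p under 0.05 (log2 fold change -0.78 ± 0.33, adjusted p = 0.997), and its r with the transcripts described was 0.156. TFRC, the transferrin receptor, gave -0.52 ± 0.28. CA1, the carbonic anhydrase of red cells, had 0.559, 0.0978, 0, 0 and 0 CPM in SWNT-SHP1i replicates 1, 2, 3, 5 and 6, against 0.182, 0, 2.81, 0.0502 and 0 CPM in SWNT replicates 1 to 5. It was thus highest in the animal with the most HBB.

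**Figure D5:**
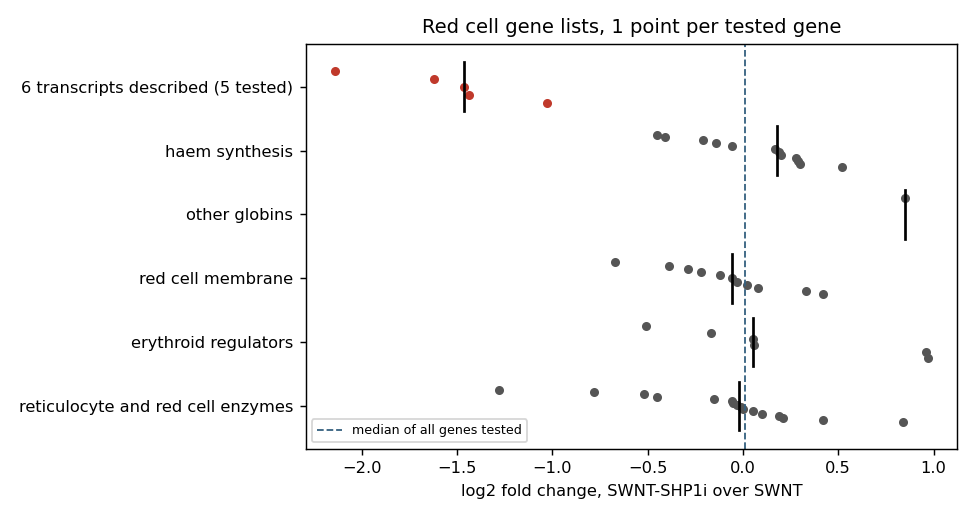
Fitted log2 fold change of SWNT-SHP1i over SWNT for each tested gene of the 6 transcripts described (5 tested) and of 5 other red cell lists, with 1 point per gene, a black line at each median and a dashed line at the median of all genes tested. The 5 transcripts lie between -2.14 and -1.03, while the medians of haem synthesis, membrane, regulator and reticulocyte lists lie between -0.06 and 0.18.

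The named genes most like the 5 tested transcripts, by Pearson r of log2 CPM with their mean over 10 libraries, were SNRNP48 (0.860), TOMM20L (0.857), MYC (0.847), PLG (0.839), SNCG (0.835), PYY (0.832), BCAS2 (0.827), RCAN1 (0.813), EEF1AKMT2 (0.809) and TMEM40 (0.808). All 10 had their highest SWNT level in SWNT replicate 3. MYC, a growth regulator, ran from 24.7 to 34.8 CPM in SWNT-SHP1i and from 18.7 to 73.7 CPM in SWNT. RCAN1, a calcineurin inhibitor, ran from 31.1 to 62.0 CPM in SWNT-SHP1i and from 43.4 to 127 CPM in SWNT. These 10 were picked from 15930 genes over 10 libraries, and their r describes these libraries.

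Markers of other blood cells were summed per library for comparison. The 13 platelet genes in the table summed to 40.7 to 86.6 CPM in SWNT-SHP1i and 34.3 to 71.5 CPM in SWNT, with 50.5 CPM in SWNT replicate 3. The 14 neutrophil genes summed to 13.5 to 394 CPM in SWNT-SHP1i and 12.0 to 34.3 CPM in SWNT, of which 34.3 CPM was SWNT replicate 3. The 15 lymphocyte genes summed to 26.0 to 257 CPM in SWNT-SHP1i and 27.6 to 129 CPM in SWNT, of which 129 CPM was SWNT replicate 3. No gene of these 3 lists was at 0 in all libraries. SWNT replicate 3 was thus the highest SWNT library for neutrophil and lymphocyte sums. It was also the highest SWNT library for endothelial genes (2033 CPM) and for genes of haem breakdown and iron (4443 CPM). It was not the highest for platelet, macrophage or smooth muscle genes. The neutrophil sums were 12.0, 14.0, 23.8, 33.6 and 34.3 CPM in SWNT replicates 5, 2, 1, 4 and 3, which is the order of HBB in that group. In SWNT-SHP1i they were 13.5, 51.0, 78.4 and 107 CPM in replicates 5, 2, 1 and 3, again in the order of HBB, but replicate 6, with 394 CPM, had the second lowest HBB. The part of these cells in the red cell values was not tested.

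HMOX1, which degrades haem, and CD163, the macrophage receptor for haemoglobin, gave no correlation with HBB or ALAS2 that passed the test. Their fitted log2 fold changes were 4.59 ± 1.11 for HMOX1 and 1.82 ± 0.45 for CD163 (SE, edgeR adjusted p = 0.997 for each). HMOX1 stood at 153, 327, 99.0, 14.6 and 2177 CPM in SWNT-SHP1i replicates 1, 2, 3, 5 and 6, against 49.6, 20.1, 17.8, 18.2 and 8.89 CPM in SWNT replicates 1 to 5. The animal with the most HMOX1, SWNT-SHP1i replicate 6, had 56.3 CPM of HBB, and the animal with the most HBB, SWNT replicate 3, had 17.8 CPM of HMOX1. Over the 10 libraries HBB and HMOX1 gave a Pearson r of -0.0098 and a Spearman rho of 0.127 (adjusted permutation p = 0.977 and 0.818), and r was 0.0163 without SWNT-SHP1i replicate 5 and SWNT replicate 3. HBB and CD163 gave an r of -0.0616 and a rho of 0.00606 (adjusted permutation p = 0.916 and 1.0), with r 0.245 without the same 2 libraries. For ALAS2, r was -0.0767 with HMOX1 and -0.135 with CD163 (adjusted permutation p = 0.916 and 0.848). The rho of ALAS2 was 0.200 and 0.103 (adjusted permutation p = 0.691 and 0.827), and r was -0.0684 and 0.119 without those libraries. On deviations from the group means, HBB gave an r of 0.247 with HMOX1 and 0.274 with CD163 (adjusted exact permutation p = 0.608 for each). ALAS2 gave 0.169 and 0.171 in the same way (adjusted exact permutation p = 0.673 for each).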

How the data were processed

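RNA was extracted with Trizol, poly-A selected and primed with random hexamers, per the labels' protocols. The authors deposited whole read counts per gene without normalization, with exon coordinates and summed exon length. Trim Galore, STAR and DESeq2 and the build Sscrofa11.1 are named in the submitters' processing notes. The read counter, strandedness and annotation version were not given in the sources used here. Symbols came from the table for 17532 genes, from gene IDs for 223 and from RefSeq genes at the same position (overlap of at least 0.5 of the union) for 842. Promoter and protein sequences were not used here.

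Counts were filtered with filterByExpr (minimum count 10; 15930 genes), scaled by TMM and tested with the quasi-likelihood test of edgeR 4.0.16 (R 4.3.3, robust, no covariates), adjusted by Benjamini-Hochberg over all genes, threshold 0.05. The SE is the absolute log2 fold change over the square root of F. CPM uses TMM-scaled totals, and log2 CPM has a prior count of 2. Exact permutation tests used all 252 assignments (smallest p 0.00794). Correlations used 100000 permutations (scipy 1.17.1), or all of them for 8 libraries and for deviations from group means. DESeq2 1.42.0 and limma 3.58.1 were alternatives. The fit was checked on simulated data. The closest pair of libraries had a median chi-square per gene of 5.40, so none was treated as a duplicate. Each library has its own animal number, and the labels name no batch.

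The rule for named genes took the 6 transcripts, the 10 most alike, the 3 with the smallest p in each red cell list, HMOX1 and CD163, of which 1 list gene is not reported here. Other red cell and globin genes given with values were named after these were seen. Genes and lists were chosen with earlier results of these data known.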

Additional observations from a re-analysis of the deposited data

Results flagged for a closer look

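Among the 6 transcripts in 2 groups of 5 animals, 2 values lay far from the rest of their group. HBB reached 1055 CPM in SWNT replicate 3, where the other SWNT animals had 35.3 to 244 CPM. HBM reached 44.0 CPM in the same animal, where the others had 0.659 to 8.03 CPM. In both, the gap to the next animal was a larger share of the group's range (0.795 and 0.830) than the critical value for 5 samples, 0.710. ALAS2 in that animal, at 235 CPM, came close with 0.705. The comparison was made on CPM. On log2 CPM the same gaps are 0.431 for HBB and 0.411 for HBM of the group's range, under that value. Chance flags about 1 in 20 groups, and HBB and HBM came from the same animal.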

How the results depend on the processing

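Scaling by RLE or upper quartile, no filter, a filter of 1 CPM, a fit that was not robust, DESeq2, leaving the 6 transcripts and mitochondrial genes out of the scaling, and counts divided by 2 (added after seeing the data) left all tested transcripts negative and uncalled. Over every alternative run the smallest adjusted p of any of them was 0.634, and 0 genes were called in any. AHSP, the only one besides SLC4A1 lost to the 1 CPM filter, has no value there. In limma-voom with quality weights ALAS2 (0.17), HBB (0.18) and HBM (0.01) turned positive, while AHSP (-0.51) and EPB42 (-0.52) stayed negative. The cause was not tested. With the animal number range as a term ALAS2 gave -0.83, HBB -0.77 and HBM -0.96. SLC4A1 differed by 0.37 in mean log2 CPM (exact permutation p = 0.743) without SWNT-SHP1i replicates 3 and 6 and SWNT replicate 3. With 1 library left out the values ran from -1.90 to -0.28 for ALAS2, -2.54 to -1.64 for AHSP, -1.74 to -0.10 for HBB, -2.23 to -0.04 for HBM, -1.55 to -0.60 for EPB42 and -1.82 to -0.56 for SLC4A1. Of the 15 pairs of transcripts, 5 were correlated at an adjusted p under 0.05 by Pearson's r and 4 by Spearman's rho. On deviations from the group means 3 pairs were. Without the 2 libraries farthest from the median of 1 gene of each pair, where fewer libraries enter, 2 pairs were. No paired analysis was possible because replicate numbers were given in accession order and the labels pair no animals. Depth limits SLC4A1 and AHSP, whose counts include 0 in 3 and 1 libraries.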
